A study of Homo sapiens with 15 samples.

Results

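The proteasome is the cell's main protease for ubiquitin-tagged proteins, and the genes described here encode its subunits, its activators and inhibitor, and the chaperones that assemble it. They were chosen by symbol (PSM, a letter from A to G, then digits) and by a mean normalized count of at least 10 over all libraries. Of 59608 listed genes, 48 carried such a symbol and 44 reached the minimum, which makes them 44 of the 13561 genes tested. PSMA8, PSMB8, PSMB9 and PSMB11 fell under it. MDA-MB-231 cells, a human triple-negative breast cancer line, were grown in 2D culture and received 0.1% DMSO as vehicle or ZJ-101, a simplified analog of the marine macrolide superstolide A, at 0.5, 5, 50 or 500 nM for 6 h. There were 3 biological replicates in each of the 5 groups, all of the same line and from 10 cm dishes. The comparison asks how the transcripts of this machine responded to each dose.

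The 20S core particle is a barrel of alpha rings, which gate the entrance, around beta rings, which hold the cutting sites. The 19S regulatory particle caps it, with a base whose ATPases unfold substrates and a lid whose deubiquitinase PSMD14 removes the ubiquitin chain. Activators of the PA28 and PA200 families can bind in place of the 19S cap. When the proteasome is inhibited, mammalian cells are known to raise transcription of nearly all subunits together through the factor NFE2L1, which binds antioxidant response elements in their promoters.

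The antioxidant response element core (TGACNNNGC, searched on both strands) was present in the window from 250 bases before to 50 bases after the start of 14 of the 38 proteasome genes that had one, or 30.4% of their 46 windows. It was present in 13.3% of all 35116 RefSeq windows on GRCh38.p14 and in 14.6% of the 14684 windows of tested genes. The genes were PSMA4, PSMB3, PSMC4, PSMC5, PSMD1, PSMD3, PSMD5, PSMD9, PSMD12, PSME1, PSME2, PSME4, PSMG1 and PSMG2. PSMA7, PSMB1, PSMB6, PSMB7, PSMD4 and PSMG3 had no window. The 6 stretches below are those whose core and 20 flanking bases on either side lie outside annotated exons, shown because NFE2L1 and NFE2L2, whose transcripts are described further on, are known to bind this core. They are written on the strand of the gene with the core in capitals, and binding at these letters was not measured.
PSMB3 (chr17:38752617-38752665, plus strand): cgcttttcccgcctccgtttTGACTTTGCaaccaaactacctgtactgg
PSMD3 (chr17:39980750-39980798, plus strand): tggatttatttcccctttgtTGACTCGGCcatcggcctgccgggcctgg
PSMD12 (chr17:67366714-67366762, minus strand): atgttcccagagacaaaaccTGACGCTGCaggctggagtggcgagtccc
PSMD9 (chr12:121888668-121888716, plus strand): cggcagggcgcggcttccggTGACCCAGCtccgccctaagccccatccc
PSME1 (chr14:24136088-24136136, plus strand): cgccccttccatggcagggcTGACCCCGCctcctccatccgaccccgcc
PSMG1 (chr21:39183606-39183654, minus strand): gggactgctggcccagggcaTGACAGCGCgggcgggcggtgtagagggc
The heat-shock element (GAA, any 2 bases, TTC, any 2 bases, GAA, or TTC, any 2 bases, GAA, any 2 bases, TTC, both strands) was in 0 of the 46 windows and in 0.49% of all windows. It was in 0.35% of the windows of tested genes. With shares this low, 0 of 46 does not set the proteasome genes apart from other genes.

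RNA integrity numbers of all samples were above 9.5 by the labels, each library held 12415519 to 15284762 reads on genes, and mitochondrial genes took 0.889% to 2.06% of them. Of the markers of this line, VIM, CD44, AXL and CAV1 were high, with means over the 15 libraries of 14566, 10851, 13212 and 7855 normalized counts, whereas SPARC, listed with them, was at 3.62. ESR1 had a mean of 0.744 and the leukocyte marker PTPRC of 1.43. PGR stood at 13.7, ERBB2 at 1211, CDH1 at 147, EPCAM at 290.5 and the endothelial marker PECAM1 at 251. The 0.5 nM replicate 2 library stood apart from the other 14. In it the median proteasome gene was 0.16 (log2) above its own mean, with 39 of 44 genes above, while in the other libraries this median lay between -0.05 and 0.03. Its short transcripts were higher as well, since the log2 deviation of all genes fell by 0.11 per doubling of transcript length, and its 28 proteasome genes under 2000 bases had a median deviation of 0.21 against 0.06 for the other 16. After removal of a fitted trend on length and GC content, 0.08 of the 0.16 remained.

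**Figure D1:**
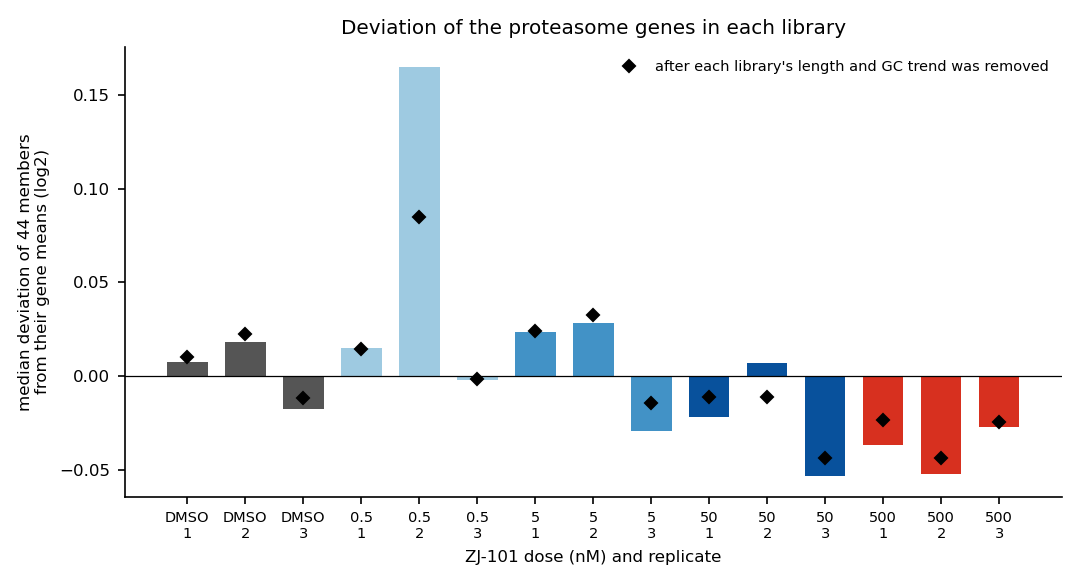
Bars give the median deviation (log2) of the 44 proteasome genes from their own means in each of the 15 libraries, coloured by dose, and diamonds give it after removal of the fitted trend on length and GC content. The 0.5 nM replicate 2 library stands at 0.16, and the other 14 lie between -0.05 and 0.03.

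In vehicle-treated cells, levels were compared between genes as normalized counts per kilobase of the canonical transcript. The 38 genes compared have neither a copy on an alternate contig nor over 25% of their transcript within same-strand exons of another gene. Among them the beta ring had the highest median of the roles, 3259 per kilobase. The alpha ring genes ranged from 508 to 6204 with a median of 1623, beside 1655 for the base subunits that are not ATPases. The alpha ring gene PSMA7 was highest at 6204 ± 267 (SD, n = 3) per kilobase. The beta ring genes PSMB1, PSMB7, PSMB4, PSMB6 and PSMB5 lay between 2639 and 3891, and PSMB2 at 615 ± 16.1. These levels depend on the length of the canonical transcript, which is 4426 bases for PSMB2 and 824 for PSMB6. Their mean counts over the 15 libraries, 2665 and 2655, were close. PSMA4 and PSMA5, the lowest of the alpha ring genes compared, also have long transcripts, of 4378 and 3815 bases. The base ATPases had a median of 1131 and the lid genes of 1343 per kilobase. PSMD2, the ubiquitin-receptor scaffold of the base, reached 3257 ± 59.8. The activators ranged widely, with PSME1 at 2049 ± 114, PSME2 at 1692 ± 82.5, PSME3 at 1073 ± 11.8 and PSME4 at 163 ± 6.46. The 20S assembly chaperones PSMG1, PSMG2, PSMG3 and PSMG4 lay between 257 and 783 and the inhibitor PSMF1 at 375 ± 3.10.

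6 genes had low values, among them 4 that read far below their partners in the same ring. PSMA1, PSMA2 and PSMA6 stood at 169, 35.4 and 53.3 normalized counts per kilobase in DMSO, while the other 4 alpha ring genes tested lay between 508 and 6204. The 19S chaperone PSMD9 stood at 38.5, and the immunoproteasome subunit PSMB10, described below, was low as well. PSMB3 stood at 113 ± 3.09 in DMSO, while the other 6 beta ring genes lay between 615 and 3891. PSMB3 has a copy on an alternate contig and no exon base in common with another gene on its strand. The other 5 share exon bases with another annotated gene on the same strand, covering 67.0% of the PSMA1 transcript, 100% of PSMA2, 81.4% of PSMA6, 56.1% of PSMB10 and 28.8% of PSMD9. In its default mode htseq-count leaves out a read that falls in more than 1 gene. The mode used is not given in the sources used here, and the part of such reads in these low values was not tested. All 6 are kept below, but their levels are uncertain.

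No proteasome gene passed the test at 0.5, 5 or 50 nM. limma with Benjamini-Hochberg adjustment called 0 of 44 at each of these doses against DMSO, and edgeR and DESeq2 on recovered reads called 0 as well. Over all genes 1.17%, 2.18% and 6.00% were called at these doses. At an unadjusted p under 0.05 there were 3 proteasome genes at 0.5 nM, all higher than in DMSO, and 1 at 5 nM and 1 at 50 nM, both lower, where 14.7%, 12.9% and 17.4% of all genes passed. The median log2 fold change of the 44 was 0.04 at 0.5 nM, 0.01 at 5 nM and -0.04 at 50 nM, beside medians within 0.01 of 0 for all genes. Without 0.5 nM replicate 2, the median at 0.5 nM was 0.01. All doses are compared with the same 3 DMSO libraries, and all values are relative to the RNA of a library, so a change in total RNA per cell cannot be told apart from no change.

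At 500 nM, 2 of 44 proteasome genes rose and none fell, while 17.8% of all genes were called, 7.69% higher and 10.1% lower. The 2 were PSME3, the PA28 gamma activator of the nuclear proteasome, and the beta ring subunit PSMB3. edgeR and DESeq2 each called 2 as well. Leaving PSMB3 aside, the fold changes of the other 43 lay between -0.16 and 0.14 on the log2 scale, and for 33 of the 44 the 95% interval stayed within 0.25 of 0. Of the 44, 33 had a negative and 11 a positive fold change, with a median of -0.04 beside 0.00 for all genes. At an unadjusted p under 0.05 there were 2 higher and 8 lower, where 29.3% of all genes passed. The 3 libraries at 500 nM all lay above the 3 DMSO libraries in 3 genes and all below in 11, together 31.8% of the 44, where 38.5% of all genes did not overlap.

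**Figure D2:**
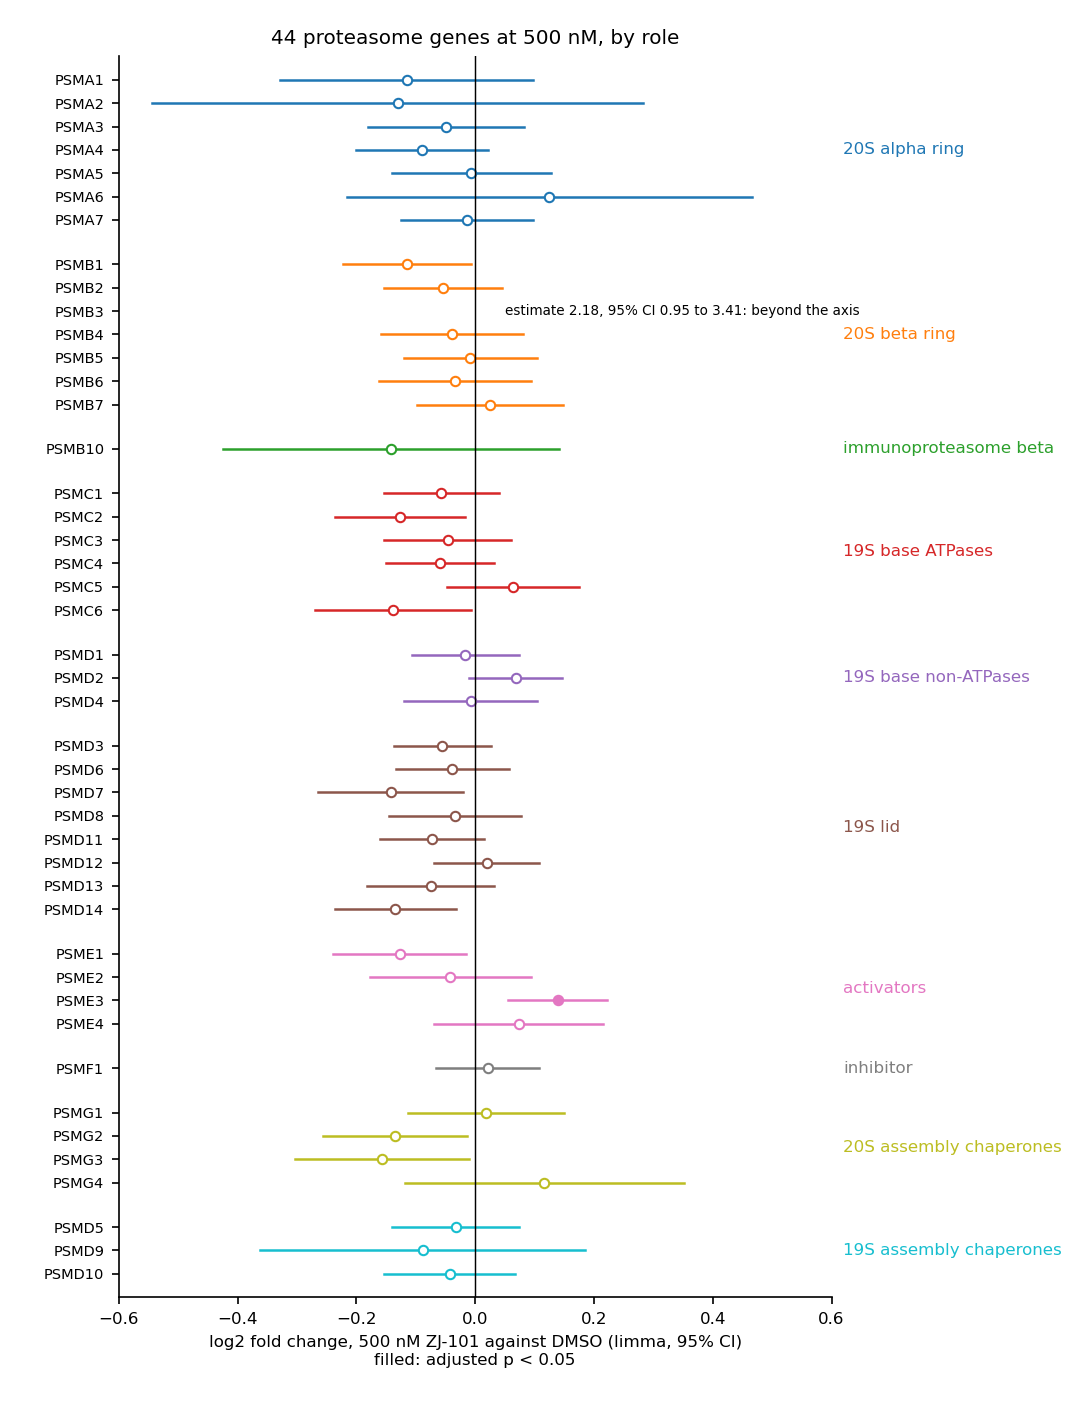
Points give the log2 fold change (horizontal axis) of each of the 44 proteasome genes at 500 nM ZJ-101 against DMSO, 3 libraries each, with 95% confidence intervals from limma, grouped and coloured by role, and a filled point marks an adjusted p under 0.05. Apart from PSMB3, whose value of 2.18 also passed the threshold and is written in place of a point, all estimates lie between -0.16 and 0.14, and PSME3 is the one filled point.

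PSME3 rose slightly and unevenly over the dose series, with steps of 0.07, 0.01 and 0.07 (log2) between neighbouring doses, none called. It lies at chr17:42824385-42843760 on GRCh38, plus strand, and its normalized counts in DMSO were 3385, 3456 and 3398. They were 3452, 3442 and 3326 at 0.5 nM, 3643, 3595 and 3460 at 5 nM, and 3652, 3568 and 3525 at 50 nM. At 500 nM they were 3847, 3593 and 3837. The libraries of the 3 higher doses all lay above those of DMSO, and the 0.5 nM libraries overlapped them. At 500 nM the log2 fold change was 0.14 (SE 0.04, n = 3, limma, Benjamini-Hochberg adjusted p = 0.019), or 1.10-fold. That call was lost with no filter on low values. It was also lost without DMSO replicate 1 or 3 or without 500 nM replicate 1 or 3, with adjusted p of at most 0.089. Its slope on dose rank, with DMSO as the lowest rank, was 0.03 per step (SE 0.01, adjusted p = 0.011) and passed the threshold with each library left out. The other activators did not pass at 500 nM. PSME1 and PSME2, the cytosolic interferon-inducible PA28 subunits, had values of -0.13 and -0.04, and PSME4, which encodes PA200, of 0.07.

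The slope across the 5 groups found 1 rise, PSME3, and 3 falls among the 44, beside 17.6% of all genes, 8.23% rising and 9.33% falling. The falls were PSMB1, a structural subunit of the beta ring, PSMD7, the lid partner that PSMD14 needs for its activity, and PSMG3, a chaperone that pairs with PSMG4 in assembling the alpha ring. On GRCh38 they lie at chr6:170535120-170553307 (minus strand), chr16:74296814-74306288 (plus) and chr7:1567332-1571005 (minus). PSMB1 counts were 3567, 3495 and 3338 in DMSO, 3577, 4051 and 3654 at 0.5 nM, 3657, 3609 and 3463 at 5 nM, 3255, 3467 and 3135 at 50 nM, and 3100, 3188 and 3315 at 500 nM. The 500 nM libraries all lay just below DMSO, and the highest value was that of 0.5 nM replicate 2. PSMD7 counts were 667, 698 and 703 in DMSO, 682, 709.8 and 732 at 0.5 nM, 665, 687 and 661 at 5 nM, 652, 658 and 645 at 50 nM, and 619.7, 576 and 681 at 500 nM. The 50 nM libraries all lay below DMSO, and at 500 nM 2 libraries lay below and 1 within the DMSO range. PSMG3 counts were 432, 423 and 464 in DMSO, 463, 499.6 and 418 at 0.5 nM, 435, 431 and 418 at 5 nM, 409, 436 and 392 at 50 nM, and 380.2, 412 and 390.4 at 500 nM. All 3 of its 500 nM libraries lay below those of DMSO.

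The slopes per dose step were -0.04 for PSMB1 (SE 0.01, limma, Benjamini-Hochberg adjusted p = 0.048), -0.04 for PSMD7 (SE 0.01, adjusted p = 0.037) and -0.05 for PSMG3 (SE 0.02, adjusted p = 0.046). At 500 nM alone none of the 3 passed in the main fit, with log2 fold changes of -0.12, -0.14 and -0.16. Among the 28 alternatives, PSMB1 passed there with length and GC trends removed, with the replicate block and that removal, and with the 2 groups alone. PSMD7 passed there without 500 nM replicate 3, and PSMG3 in none. The 3 slopes were near the threshold, and without 50 nM replicate 3, 500 nM replicate 1 or 500 nM replicate 2 the count of falls was 0. PSMB1 also lost its slope call with edgeR and without DMSO replicate 1, 0.5 nM replicate 1 or 3, 5 nM replicate 2 or 3, 50 nM replicate 1 or 500 nM replicate 3. PSMD7 lost it without DMSO replicate 2 or 3 or 0.5 nM replicate 3, and PSMG3 with equal totals per library and without DMSO replicate 3, 0.5 nM replicate 1, any 5 nM library, 50 nM replicate 1 or 500 nM replicate 3. With no filter on low values all 3 slope calls were lost. Exons of an unnamed gene on the opposite strand cover 51.6% of the PSMD7 transcript, and since the strandedness of the counting is not given in the sources used here, reads of the 2 genes cannot be told apart.

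**Figure D3:**
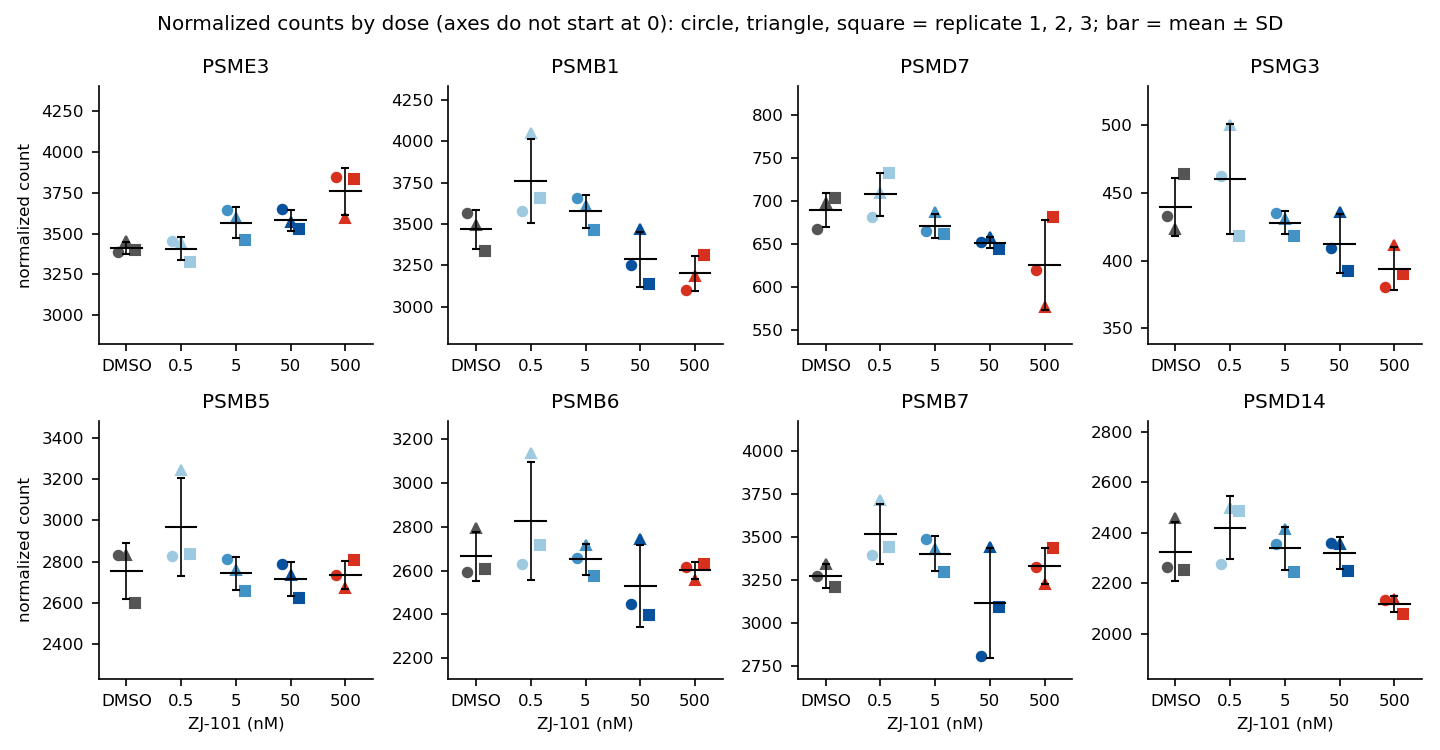
Normalized counts (vertical axes, not starting at 0 and spanning the same relative range) of 8 proteasome genes against ZJ-101 dose, with 1 symbol per replicate and bars for the mean ± SD of 3 libraries. PSME3 climbs from 3413 to 3759, while the catalytic PSMB5, PSMB6 and PSMB7 end at -0.01, -0.03 and 0.03 (log2) against DMSO.

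The catalytic subunits did not pass the threshold at any dose. PSMB5, which carries the chymotrypsin-like site and is the main target of clinical proteasome inhibitors, had counts of 2833, 2835 and 2598 in DMSO and 2735, 2670 and 2806 at 500 nM. PSMB6, with the caspase-like site, had 2593, 2794 and 2606 in DMSO and 2617, 2555 and 2628 at 500 nM. PSMB7, with the trypsin-like site, had 3269, 3339 and 3205 in DMSO and 3327, 3227 and 3436 at 500 nM. The groups overlapped in all 3 genes. The log2 fold changes at 500 nM were -0.01 (95% interval -0.12 to 0.10), -0.03 (-0.16 to 0.09) and 0.03 (-0.10 to 0.15). Their immunoproteasome counterparts were barely measured. PSMB10 had counts of 107, 84.0 and 99.4 in DMSO and 91.7, 74.8 and 96.3 at 500 nM, which overlapped, with a log2 fold change of -0.14 (95% interval -0.42 to 0.14). PSMB8 was at 0 in all 15 libraries and PSMB9 at no more than 1.07, but each has near-identical copies on 7 alternate contigs of the reference, and the part of those copies in these values was not tested. TAP1, a neighbour of both in the MHC region with 7 such copies, was at 0 in all libraries as well.

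By role, 0 of the 7 alpha ring genes were called at 500 nM (median log2 fold change -0.05), 1 of the 7 beta ring genes (-0.03), 0 of the 6 base ATPases (-0.06), 0 of the 3 other base subunits (-0.01), 0 of the 8 lid genes (-0.06), 0 of the 4 20S chaperones (-0.06) and 0 of the 3 19S chaperones (-0.04). The inhibitor PSMF1 had a value of 0.02. Over all genes 17.8% were called. PSMA6, an alpha ring subunit whose fold change was the third highest, had counts of 47.1, 59.7 and 56.8 in DMSO and 52.0, 56.6 and 70.7 at 500 nM. Its fold change of 0.13 had a 95% interval of -0.22 to 0.47, and it shares sequence with the pseudogene PSMA6P1. PSMD14, the lid deubiquitinase, came nearest to the threshold among the genes not called, and it and the 4 genes in the next sentences are named after their values were seen. Its counts were 2263, 2459 and 2250 in DMSO and 2131, 2137 and 2079 at 500 nM, which did not overlap, with a log2 fold change of -0.13 (SE 0.05, limma, Benjamini-Hochberg adjusted p = 0.064).

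How many small decreases were called at 500 nM depended on 0.5 nM replicate 2, although that library is not in the comparison, because all 5 groups share 1 estimate of the spread. Without it 2 proteasome genes rose and 5 fell, 7 of 44, beside 22.8% of all genes. The 5 were PSMD14, the base ATPases PSMC2 and PSMC6, the activator PSME1 and the chaperone PSMG2, with log2 fold changes of -0.13 to -0.14. The SE of PSMC6 went from 0.06 to 0.04 without that library while its fold change stayed at -0.14. Without 500 nM replicate 1 no proteasome gene was called.

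PSMB3 moved between replicates far more than any other proteasome gene. Its within-group SD was 0.95 (log2), against 0.03 to 0.25 for the other 43. The gene lies at chr17:38752741-38764225 on GRCh38, plus strand, and a near-identical copy of it lies on 1 alternate contig. Its counts were 83.6, 88.0 and 87.3 in DMSO, 96.8, 111 and 92.9 at 0.5 nM, 782, 82.9 and 83.4 at 5 nM, 67.7, 64.4 and 94.7 at 50 nM, and 734, 191 and 441 at 500 nM. The 3 libraries at 500 nM lay above those of DMSO, and the highest value of all was that of 5 nM replicate 1. The log2 fold change at 500 nM was 2.18 (SE 0.59, n = 3, limma, Benjamini-Hochberg adjusted p = 0.013) and that from 50 to 500 nM was 2.39 (SE 0.59, adjusted p = 0.036), the only one of the 44 called in any step between neighbouring doses. In these steps 0.118%, 5.01% and 2.28% of all genes were called. Without 500 nM replicate 1 the adjusted p at 500 nM was 0.077. The step from 50 to 500 nM lost its call without any 1 of the DMSO or 50 nM libraries, or without 500 nM replicate 1 or 3, with adjusted p of at most 0.19.

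The neighbours of PSMB3 on the same contig behaved likewise. 7 tested genes, PSMB3 included, have a copy there. With 1 added to each count, the ratio of their highest to their lowest library lay between 2.62 and 33.6. The highest library was a different one for each of the 7. RPL23 and LASP1, next to this stretch and without a copy, had ratios of 1.32 and 1.25. CISD3, an upstream neighbour, was at 29.8, 259 and 13.2 in the 3 DMSO libraries. The part of the contig copy in the PSMB3 calls was not tested, as reads placed on alternate contigs are not in the table.

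**Figure D4:**
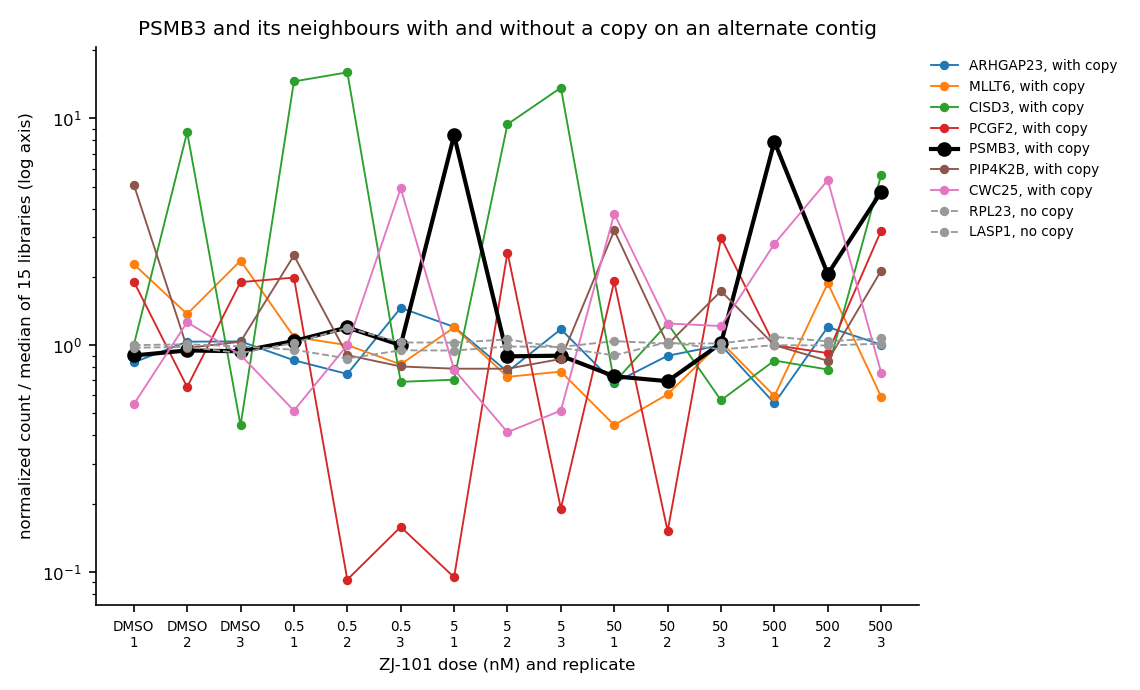
Normalized counts of PSMB3 (black) and neighbouring genes in each library, divided by the gene's median over the 15 libraries, on a log axis, with lines joining the points of a gene. With 1 added to each count, which the plotted values do not have, the 7 genes with a copy vary by 2.62 to 33.6 times. This is between the highest and lowest library of a gene, and RPL23 and LASP1 (dashed) vary by 1.32 and 1.25 times.

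Around the proteasome, the genes that passed the test at 500 nM were 1 polyubiquitin gene, 3 transcription factors and 2 zinc-finger shuttle factors. Of 38 listed pathway genes outside the symbol rule, 35 were tested, and at 500 nM 2 rose and 4 fell, beside the 17.8% called over all genes. The largest change was in NFE2L1, the factor that drives proteasome gene transcription (chr17:48048329-48061545, plus strand). Its counts were 5511, 5752 and 5416 in DMSO, 5275, 4366 and 5751 at 0.5 nM, 5081, 4827 and 5257 at 5 nM, 2302, 2307 and 2277 at 50 nM, and 2015, 2080 and 2030 at 500 nM. The libraries of the 2 higher doses lay far below all the others. The log2 fold change was -1.28 at 50 nM (SE 0.07, limma, Benjamini-Hochberg adjusted p = 4.7e-10) and -1.44 at 500 nM (SE 0.07, adjusted p = 3.8e-11), and the step from 5 to 50 nM carried -1.14 of it (adjusted p = 7.8e-09).

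At these 2 doses, where the NFE2L1 transcript was at 41.3% and 36.7% of its DMSO level, the median proteasome gene stood at -0.04 on the log2 scale. The 14 genes with the antioxidant response element core in their window included 1 gene called at 500 nM, PSMB3, whose level is uncertain, where 17.8% of all genes were called. Only transcripts were measured here, and the part of the NFE2L1 fall in these values was not tested. NFE2L2, the related antioxidant factor, had counts of 1822, 1791 and 1767 in DMSO and 1425, 1480 and 1473 at 500 nM, which did not overlap. It fell by 0.20 at 5 nM (adjusted p = 0.020), 0.20 at 50 nM (adjusted p = 0.0069) and 0.30 at 500 nM (adjusted p = 6.1e-05), all limma with Benjamini-Hochberg adjustment. The 5 nM call was lost with no filter on low values. It was also lost without any 1 of the 3 DMSO libraries or without 5 nM replicate 1 or 3.

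The polyubiquitin gene UBB, which encodes a chain of ubiquitin units, rose at the 2 higher doses. It lies at chr17:16380798-16382745, plus strand, and had counts of 3509, 3621 and 3369 in DMSO, 4097, 4249 and 4069 at 50 nM and 4330, 4546 and 4674 at 500 nM. Neither dose overlapped DMSO. It rose by 0.24 at 50 nM and 0.37 at 500 nM (SE 0.05, limma, Benjamini-Hochberg adjusted p = 0.0022 and 1.1e-05). RPS27A, which encodes ubiquitin fused to a ribosomal protein, did not pass at either dose. Exons of another gene on the opposite strand cover 49.4% of the UBB transcript.

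Among shuttle receptors, which bring substrates to the proteasome, 1 of 9 rose and 1 fell at 500 nM, where 7.69% of all genes were higher and 10.1% lower. ZFAND2A, an arsenite- and heat-inducible factor that binds the 19S particle, had counts of 190.3, 201 and 162 in DMSO and 247, 246 and 253 at 500 nM. ZFAND5, a zinc-finger protein that stimulates the 26S proteasome, had 3723, 3906 and 3881 in DMSO and 3339, 3229 and 3146 at 500 nM. Neither overlapped DMSO, and the log2 fold changes were 0.43 (SE 0.10, limma, Benjamini-Hochberg adjusted p = 0.0049) and -0.24 (SE 0.04, adjusted p = 0.00053). At 0.5, 5 and 50 nM ZFAND5 had log2 fold changes of -0.12, -0.13 and -0.15, with all libraries below those of DMSO. ZFAND2A had 0.23, 0.12 and 0.19 at these doses, overlapping DMSO, and none of these values passed the threshold. IRF1, which drives immunoproteasome genes after interferon, had counts of 504, 470.4 and 487 in DMSO, 386, 373 and 327 at 50 nM and 338, 357 and 379.8 at 500 nM. Its libraries at both doses lay below DMSO, and it fell by 0.43 at 50 nM and 0.44 at 500 nM (SE 0.08, adjusted p = 0.0018 and 0.00059). None of the 4 listed parts and assembly factors outside the symbol rule (ADRM1, SEM1, POMP and PAAF1), of the 6 proteasome-bound enzymes and factors, or of the 3 parts of the VCP segregase passed at 500 nM.

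**Figure D5:**
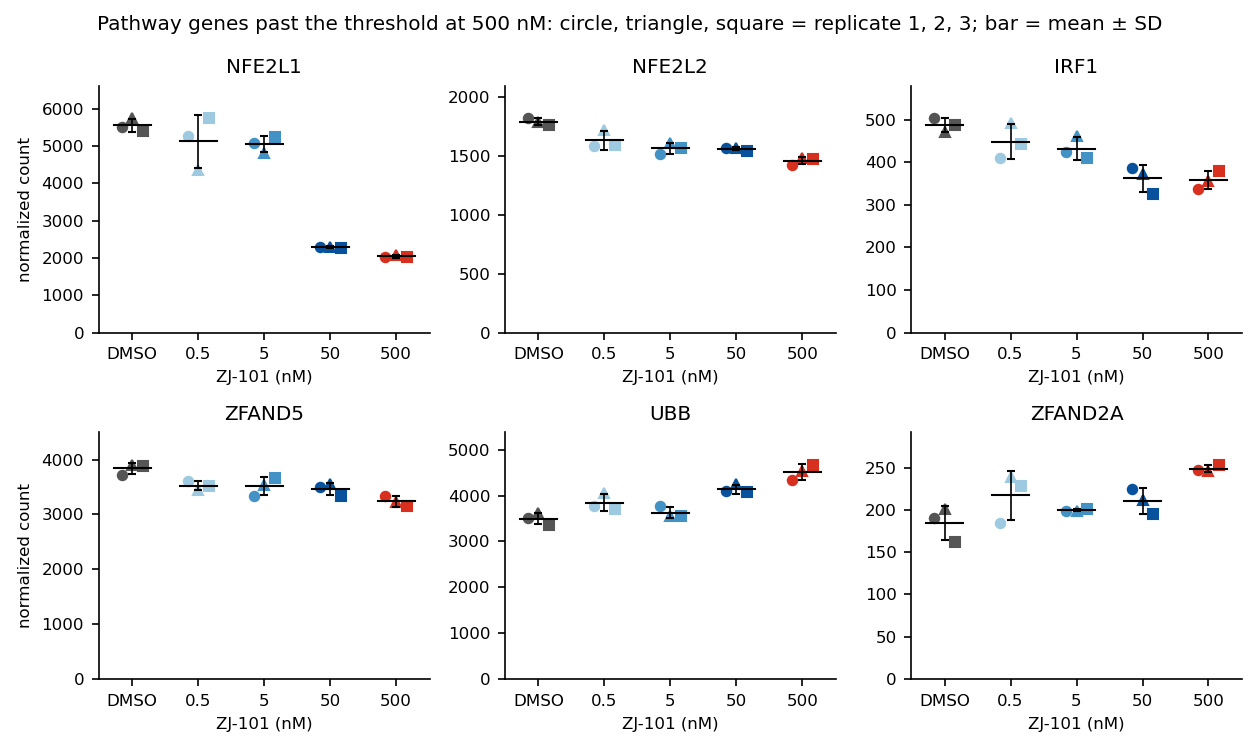
Normalized counts (vertical axes from 0) of the 6 pathway genes past the threshold at 500 nM against ZJ-101 dose, with 1 symbol per replicate and bars for the mean ± SD of 3 libraries. NFE2L1 drops from 5055 at 5 nM to 2295 at 50 nM, while UBB climbs from 3500 in DMSO to 4517 at 500 nM.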

How the data were processed

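Libraries came from poly-A RNA of MDA-MB-231 cells, 3 per group in 5 groups, grouped by their labels. Paired 150 bp reads were aligned by the authors with HISAT2 (hg38), assigned to GENCODE genes by htseq-count, and scaled by dividing the counts of a library by its DESeq2 size factor. The deposited signal values are these normalized counts. The versions and strandedness are not given in the sources used here. The single line that named no gene was dropped. Reads were recovered as whole numbers (largest distance 0.000119) and used in edgeR and DESeq2 alone. Recovered depth was 12415519 to 15284762 reads per library, size factors were 0.916 to 1.13, and replicates differed beyond sampling noise.

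Genes with a mean of at least 10 were tested by limma with a variance trend on log2(normalized count + 1), in 1 fit of 5 groups with 10 residual degrees of freedom. It gave contrasts of each dose with DMSO, of neighbouring doses, and, in a separate fit, a slope on dose rank. Fold changes are on that log2 scale. p was adjusted over all 13561 genes (Benjamini-Hochberg, threshold 0.05). The scripts were tested on simulated data. Named are genes past the threshold, the 3 largest rises and falls at 500 nM, the catalytic and immunoproteasome subunits, PSMB3, and listed pathway genes called at 500 nM. Of the pathway list, 2 genes are not reported here. The genes, lists and rules were chosen with earlier results of these data known.

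Positions, lengths and overlaps were from GENCODE 44 on GRCh38, and promoters from RefSeq. A copy covers at least 90% of a transcript at 99% identity on 1 of 261 alternate contigs. Alternatives were pseudocounts of 0.5 and 5, no filter or a minimum mean of 50, a replicate block, removal of length and GC trends, TMM scaling, equal totals, edgeR's quasi-likelihood test, DESeq2, each library left out, the 2 groups alone or the 12 treated libraries, an adjusted p under 0.1, and fewer members. DESeq2 1.42.0, edgeR 4.0.16 and limma 3.58.1 were run in R 4.3.3, and copies were searched with minimap2 from Python 3.11.15.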

Additional observations from a re-analysis of the deposited data

How the results depend on the processing

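No proteasome gene was called at 0.5, 5 or 50 nM or in the step from 0.5 to 5 nM under any alternative run. At 500 nM the count of 2 became 1 with no filter on low values, 6 with length and GC trends removed, 6 with the replicate block and that removal, 7 with the 2 groups alone, and 1 for members without an alternate contig copy. The share of all genes called, 17.8%, became 6.40%, 23.4%, 23.6% and 24.3% under the first 4 of these. At an adjusted p under 0.1, PSMD14 (0.064 by limma with Benjamini-Hochberg adjustment) passed at 500 nM as well, as a decrease. The slope count of 4 became 1 with no filter, 7 with the replicate block and trends removed, 7 over the 12 treated libraries and 9 at an adjusted p under 0.1, where the share of all genes, 17.6%, became 6.03%, 21.6%, 17.8% and 23.2%. The count of 0 from 5 to 50 nM became 2 with trends removed, 2 with the block added, 1 with TMM scaling and 1 at an adjusted p under 0.1, where the share of all genes, 5.01%, became 8.13%, 8.08%, 4.97% and 7.39%. The count of 1 from 50 to 500 nM became 0 with edgeR and 0 for members without a copy. 2 alternatives were chosen after seeing the data. Without PSMB3, and without the members with a copy or same-strand overlap, the count at 500 nM was 1 in both and that from 50 to 500 nM was 0 in both.

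With each library left out in turn, the counts ranged from 0 (without 500 nM replicate 1) to 7 (without 0.5 nM replicate 2) at 500 nM, from 1 to 5 for the slope, from 0 to 1 from 5 to 50 nM, from 0 to 1 from 50 to 500 nM, and from 6 to 8 for the other pathway genes at 500 nM. No called gene changed sign. PSMB5 and PSMB6, not called at 500 nM, ranged from -0.05 to 0.01 and from -0.06 to 0.00 (log2) over the alternatives. The calls of NFE2L1, UBB, IRF1, NFE2L2, ZFAND5 and ZFAND2A at 500 nM held in all 28 alternatives. The cause of the other changes was not tested.

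Same-numbered replicates were not treated as pairs, because the correlations of their deviations lay between -0.09 and 0.10 and none was over 0.1. Of the 15 libraries, 9 correlated best with a library of their own number, which 4 of the 12 libraries of other groups carry. With the replicate block the counts were 3 at 500 nM and 5 for the slope.

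Intervals reflect 3 libraries per group. Depth does not set the uncertainty of genes that share exons or sequence with another gene or contig, PSMB3, PSMB8 and PSMB9 among them.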
